A study of Homo sapiens with 38 samples.

Results

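The transcriptome of unexposed A549 cells was compared between 72 h and 24 h of culture, without any particles. A549 is a human alveolar epithelial cell line. The comparison used 6 of the 38 arrays of a study of fumed silica nanoparticles (NPs), chosen by their labels as the control arrays of the set that holds both times. The 3 cultures kept for 24 h and the 3 kept for 72 h were biological replicates 1 to 3 of the control condition. Per the study's methods, the control cells of the earlier time received serum-free medium in place of the NP suspension. The medium of the control cells of the later time is not described there. All groups were the same cell line, grown in serum-containing medium before the experiment, and no genotype or agent other than the NPs differed between groups. Whether the medium was renewed between 24 h and 72 h is not given in the sources used here. Each of the 3 slides carried 1 array of each time, scanned on the same day, always with the 24 h sample at position 1 and the 72 h sample at position 4, so array position and culture time cannot be told apart.

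A549 cells derive from a lung adenocarcinoma and share some traits with alveolar type II cells, the surfactant-secreting cells of the lung. They are also known to transcribe genes for plasma proteins that are made mainly by hepatocytes, such as the fibrinogen chains. In serum-free medium cells obtain no lipoprotein cholesterol, growth factors or hormones from serum and live on what they make and secrete, while the cell layer becomes denser and nutrients are used up over days. Cholesterol synthesis is controlled by SREBP transcription factors, which are released when sterols in the endoplasmic reticulum are scarce. Low oxygen acts through HIF transcription factors on genes of glycolysis and pH control, and a dense epithelial layer restrains the YAP coactivator and its targets.

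Each array measured Cy3-labelled RNA with one dye. A level is the log2 signal of a probe minus the 75th percentile of its array, so 0 is the signal of a probe at that percentile, and a difference is the level at 72 h minus the level at 24 h. The 75th percentile lay between 1035 and 1313 at 24 h and between 838 and 1035 at 72 h, and 64.1% to 66.9% of probes were well above background on the 6 arrays. Epithelial markers were present at both times. KRT18, a simple-epithelium keratin, stood at a mean level of 8.03 at 24 h and 8.30 at 72 h, and EPCAM, an epithelial adhesion molecule, at 0.43 and 0.91. Of the surfactant protein genes, SFTPB and SFTPA1 were not well above background on any of the 6 arrays, and neither was NKX2-1, the lineage factor of lung epithelium. Of 10 fibroblast markers, 7 were not measured well above background on all arrays of either time, and the same held for 7 of 10 endothelial and 3 of 10 leukocyte markers. Only 9 of the 10 leukocyte markers had a probe with their gene symbol, so the 3 include a marker that was not measured. In bulk RNA a lower share of cells with a transcript and less of it per cell cannot be told apart.

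Culture time was accompanied by a broad change. Of 22133 probes tested, 4455 were called, that is, passed an adjusted p of 0.05 (limma, Benjamini-Hochberg over all probes) with a difference of at least 1.5-fold, which is 20.1%. Of these, 2968 were higher at 72 h (13.4% of those tested) and 1487 were lower (6.72%). Higher probes made up 66.6% of the calls on this scale, but 54.4% after quantile normalization and 43.7% when each array was centred on its median, which moved the median difference over all probes from 0.06 to −0.07. The counts of higher against lower transcripts are therefore relative to the scaling. Among called probes the arrays of both times did not overlap for 4425, against 67.7% of all probes tested, and the sign was the same on all 3 slides for 4443. Both counts rest on the arrays that made the calls and are no separate support. The share with the same sign was not computed over all probes. With each gene represented by its brightest tested probe, 2694 of 14337 genes were called, 1758 higher (12.3%) and 936 lower (6.53%), and the median difference over all genes was 0.04.

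**Figure D1:**
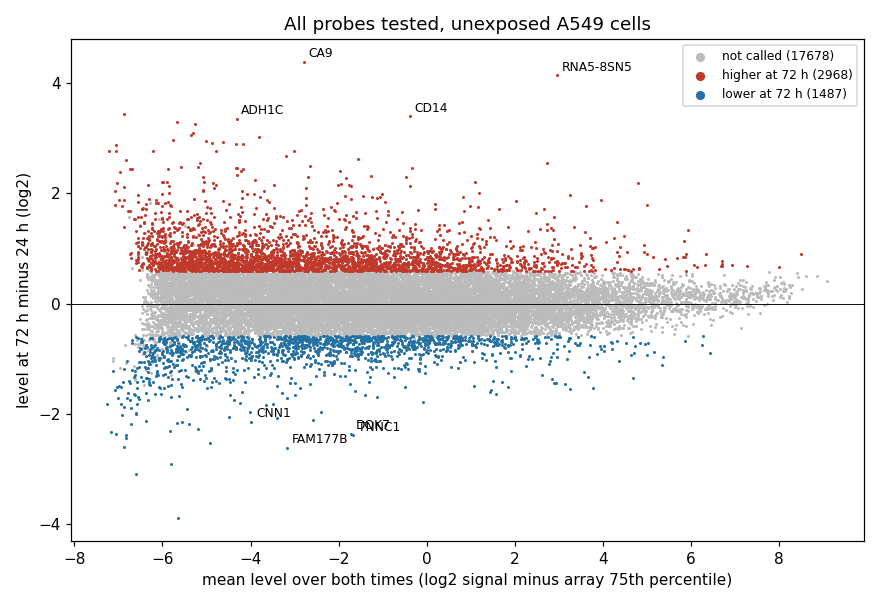
Mean level over both times (x axis, log2 signal minus the 75th percentile of the array) against the difference between 72 h and 24 h (y axis, log2) for the 22133 probes tested. The 2968 higher probes (red) and 1487 lower probes (blue) lie at all levels, and labelled genes include CA9 at a difference of 4.38 and FAM177B at −2.61.

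The position of the array was examined on another slide, which held unexposed 24 h samples at positions 1 and 4. There, 1396 of the 22133 tested probes (6.31%) and 481 of the 4455 called probes (10.8%) differed by 1.5-fold or more between the positions, so such differences were more frequent among the called probes. Of the 481, 172 differed in the direction of the time difference, or 3.86% of the called probes. Each position held 1 culture on that slide, so position and culture cannot be told apart there. The median difference between times was 0.20 in the dimmest of 4 equal groups of probes by signal and 0.06, 0.01 and 0.04 in the brighter groups.

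The gene with the largest rise was CA9, a cell-surface carbonic anhydrase that regulates pH and is a classical target of HIF. Its levels were −4.87, −5.21 and −4.84 in the 24 h replicates and −0.43, −0.85 and −0.49 in the 72 h replicates. All 72 h arrays lay far above all 24 h arrays, a 20.8-fold rise (difference 4.38 ± 0.15, SE, n = 3 per time, limma adjusted p = 2.72e-05). CD14, the co-receptor for bacterial lipopolysaccharide, rose from −2.02, −2.07 and −2.11 to 1.37, 1.31 and 1.29. The replicates of each time lay within 0.1 of each other, and the rise was 10.5-fold (3.39 ± 0.05, limma adjusted p = 5.52e-06).

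ADH1C, an alcohol dehydrogenase, rose 10.2-fold from a mean level of −5.99 to −2.64, and TF, the iron carrier transferrin, rose 8.08-fold. PRTN3, a serine protease known from neutrophil granules, rose 7.64-fold, and NFE2, a leucine-zipper transcription factor of the erythroid lineage, rose 7.38-fold. The interferon-induced membrane protein gene IFITM1 rose 6.79-fold and CFI, the protease complement factor I, rose 6.34-fold. KLF9, a zinc-finger transcription factor, went from −2.79, −2.89 and −2.94 to −0.28, −0.17 and −0.30, a 6.18-fold rise. FGG, LINGO2, CST1, TNFSF10 and CEACAM1 were also among the 15 genes with the largest rise, between 4.96-fold and 5.84-fold. CST1 encodes a salivary cystatin, TNFSF10 the death ligand TRAIL and CEACAM1 an adhesion molecule. A probe for the ribosomal RNA gene RNA5-8SN5, one of several near-identical copies, rose from 0.17, 1.41 and 1.12 to 4.89, 5.08 and 5.11, with the widest spread at 24 h of the 15. Its rise lay between those of CA9 and CD14 in size.

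Among the 15 genes with the largest fall, TNNC1, the calcium-binding troponin of slow and cardiac muscle, went from −0.44, −0.54 and −0.44 to −2.85, −2.94 and −2.80. The arrays of both times were far apart, a 5.23-fold fall (difference −2.39 ± 0.06, SE, n = 3 per time, limma adjusted p = 1.64e-05). NCF1, a phagocyte oxidase subunit whose sequence is shared by close pseudogene copies, fell 3.91-fold, with 24 h levels spread from −2.06 to −0.88. DOK7, an adaptor protein of the neuromuscular synapse, fell 5.15-fold and CNN1, the actin-binding calponin, 4.41-fold. XDH, the xanthine dehydrogenase of purine breakdown, fell 4.34-fold, and PLA2G4C, a cytosolic phospholipase, 3.91-fold. The complement receptor gene C5AR1 and IRAK2, a kinase of interleukin-1 and Toll-like receptor signalling, fell 3.35-fold and 3.25-fold. FAM177B, first by size at 6.11-fold, had replicates spread from −2.32 to −1.22 at 24 h. RASD1, VSTM1, UCN2, IDI1 and the pseudogene ABCA11P fell between 3.04-fold and 3.42-fold, and the call of ABCA11P was lost with normexp, another background correction.

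**Figure D2:**
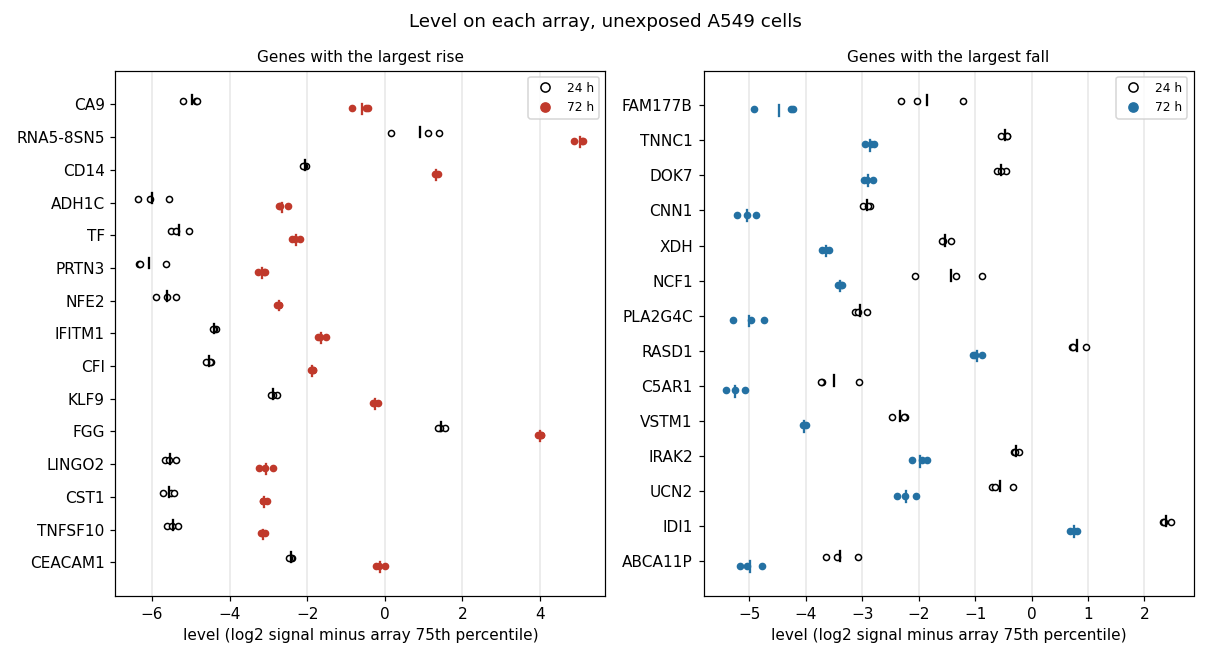
Level on each of the 6 arrays (x axis, log2 signal minus the 75th percentile of the array) for the genes with the largest rise and those with the largest fall that are reported here, with open circles for 24 h, filled circles for 72 h and a tick at each mean. The times do not overlap for any gene shown, which the rule required, and the spread within a time is widest for RNA5-8SN5, FAM177B and NCF1.

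For some genes only a bound on the change was measured, because one time was not well above background. NOX1, the catalytic subunit of an epithelial NADPH oxidase, was not well above background on any 24 h array and stood at −3.98, −3.96 and −4.14 at 72 h, at least 6.74-fold higher. WDR86 was at least 6.98-fold higher, CHN2, a Rac GTPase-activating protein, at least 5.62-fold, the transcription factor SOX21 at least 3.97-fold and the TNF family ligand TNFSF14 at least 3.82-fold. In the other direction, LTB, the lymphotoxin beta subunit, stood at −3.76, −3.58 and −3.79 at 24 h and was not well above background at 72 h, at least 7.07-fold lower. UBD, a ubiquitin-like modifier induced by cytokines, was at least 4.51-fold lower, CCL20, a chemokine, at least 3.60-fold and SCN3B, a sodium channel subunit, at least 2.87-fold. The calls of UBD, CCL20 and SCN3B were lost with normexp.

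Named gene lists were then read against the shares over all genes, 12.3% higher and 6.53% lower. These shares belong to the main scale and not to list counts given for another setting. Of all 22133 probes, 1557 were called higher and 518 lower with normexp. With median centring 1940 were higher and 2498 lower. Of the lists examined, plasma proteins of the liver type had the largest share of higher genes (21 of 28) and cholesterol synthesis the largest share of lower genes (17 of 25). No gene of the ribosomal protein list (35 tested), the respiratory chain list (33 tested) or the metallothionein and zinc list (9 tested) was called, and their median differences were 0.18, 0.18 and 0.13.

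**Figure D3:**
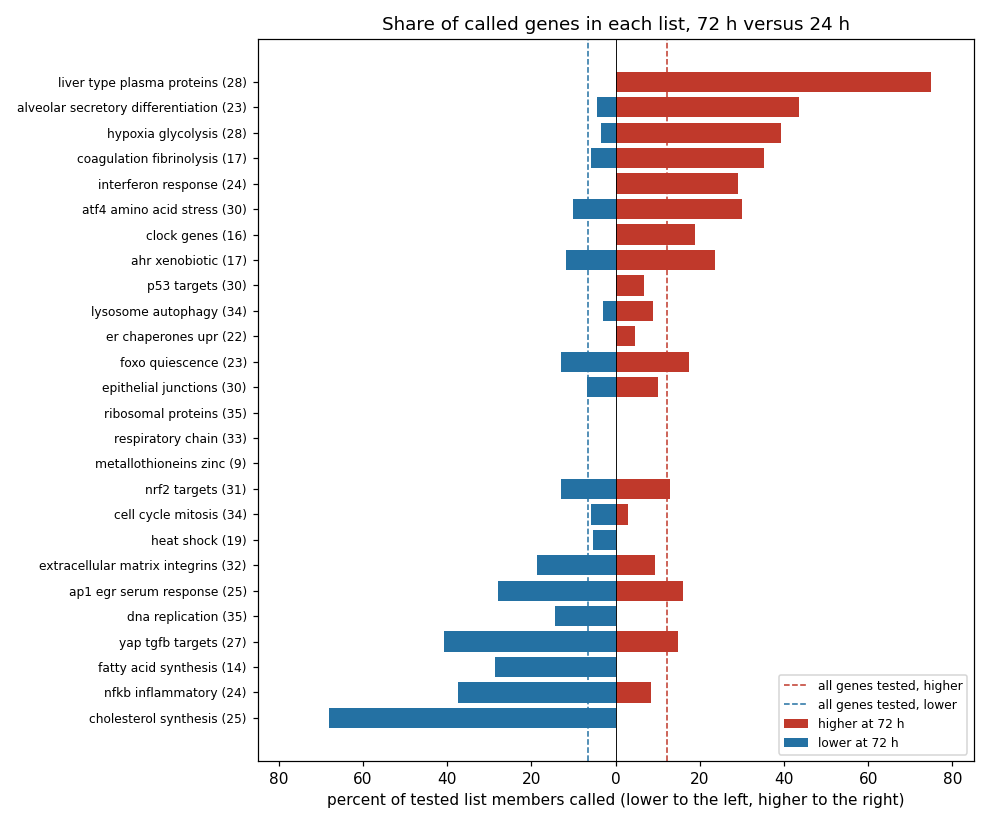
Percent of the tested members of each gene list (number tested in parentheses) called higher (red, to the right) or lower (blue, to the left) at 72 h, with dashed lines at the shares over all 14337 genes, 12.3% higher and 6.53% lower. Of the liver-type plasma proteins 21 of 28 were higher and of the cholesterol synthesis genes 17 of 25 lower.

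Of the 36 genes for plasma proteins of the liver type, 28 were tested, 21 were higher at 72 h and 0 were lower, with a median difference of 1.08. With normexp 15 were called, all higher, with a median of 0.63. The list includes the 3 fibrinogen chains, whose genes lie together on chromosome 4 and whose products assemble into the clotting protein. RefSeq (GRCh38.p14) sequences upstream of their starts are shown because the 3 genes moved together. Capitals mark matches, on either strand, to TTGCNNAA (a C/EBP-type motif), CTGGGAA (an element described in interleukin-6 responsive genes) or GTTAAT and TTAA separated by 2 bases (an HNF1-type motif).
FGA, chr4:154590743-154590892, minus strand: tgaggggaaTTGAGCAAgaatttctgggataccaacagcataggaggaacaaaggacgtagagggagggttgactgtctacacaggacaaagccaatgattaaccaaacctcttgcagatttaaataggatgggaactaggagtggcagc
FGB, chr4:154562830-154562979, plus strand: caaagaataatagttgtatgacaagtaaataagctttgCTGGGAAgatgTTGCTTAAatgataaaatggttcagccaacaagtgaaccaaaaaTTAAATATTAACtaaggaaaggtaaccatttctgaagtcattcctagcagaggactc
FGG, chr4:154612673-154612822, minus strand: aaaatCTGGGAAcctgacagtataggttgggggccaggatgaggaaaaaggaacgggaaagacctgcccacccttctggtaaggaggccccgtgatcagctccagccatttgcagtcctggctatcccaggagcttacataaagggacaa
Each window is 150 bases, 5′ to 3′, ending 1 base before the start for FGA and FGB and 17 bases before it for FGG. TTGCNNAA was found in 8 of the 16 called genes of the list that have promoters in the RefSeq table, against 12.7% of all 27305 genes in it. CTGGGAA was found in 5 of the 16 against 13.1%, and the HNF1-type motif in 3 of the 16 against 0.14%, each on either strand within the promoter windows of that table. The windows scanned there extend beyond the 150 bases printed. Only called members were counted, so the shares do not separate the genes that changed from the list as a whole. A match is a description of the letters and does not show binding.

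FGB stood at 0.36, 0.04 and 0.15 at 24 h and at 2.17, 2.19 and 2.20 at 72 h, a 4.00-fold rise (2.00 ± 0.09, SE, limma adjusted p = 4.44e-05). FGA went from −0.09, −0.12 and −0.23 to 1.92, 1.71 and 1.71, a 3.80-fold rise seen with all 3 of its probes. FGG went from 1.56, 1.43 and 1.39 to 3.96, 4.04 and 4.02, a 5.84-fold rise. The replicates of each time were close for all 3 chains, and the times did not overlap.

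Other secreted proteins of the list rose from lower levels. The protease inhibitor gene SERPINA1 (alpha-1 antitrypsin) rose by 1.98 and AHSG (fetuin A) by 1.87 on the log2 scale. Of the complement genes, C3 rose by 1.76 and CFB by 1.63, while C5 differed by 0.34 and was not called. Albumin (ALB) rose by 1.44, but it was well above background on only 1 of the 3 arrays at 24 h. HNF4A, a nuclear receptor that controls such genes, was called higher at 0.82, also from 1 array above background at 24 h. TTR, AMBP, ORM1 and the acute-phase gene SAA1 were not called, at 0.03, −0.14, 0.21 and −1.21.

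Clotting and fibrinolysis genes other than the fibrinogens were called higher in 6 of 17 and lower in 1, with a median of 0.24. F2, prothrombin, rose by 1.10 and F7, the factor that starts the extrinsic pathway, by 0.80. F13B, a carrier subunit of the fibrin-crosslinking factor, was not well above background at 24 h and was at least 3.30-fold higher at 72 h. F3, tissue factor, was not called at −0.53. With normexp 3 of the 17 were called, and F7 and F13B were not among them, and with median centring 4 were higher and 2 lower.

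Cholesterol synthesis moved the other way as a group. Of 25 genes tested, 17 were lower at 72 h and 0 were higher, with a median difference of −0.88. Upstream sequences of 3 of the called genes are shown because a CCAAT box, the NF-Y motif often found beside sites for SREBP, recurred in the group. Capitals mark CCAAT or its reverse complement ATTGG.
HMGCS1, chr5:43313423-43313572, minus strand: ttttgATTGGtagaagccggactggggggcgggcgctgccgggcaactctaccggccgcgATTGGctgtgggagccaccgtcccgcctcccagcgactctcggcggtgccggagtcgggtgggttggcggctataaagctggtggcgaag
IDI1, chr10:1048887-1049036, minus strand: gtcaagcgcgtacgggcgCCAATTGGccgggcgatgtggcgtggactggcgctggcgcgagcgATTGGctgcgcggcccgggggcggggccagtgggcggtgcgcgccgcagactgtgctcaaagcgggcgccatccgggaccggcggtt
INSIG1, chr7:155297703-155297852, plus strand: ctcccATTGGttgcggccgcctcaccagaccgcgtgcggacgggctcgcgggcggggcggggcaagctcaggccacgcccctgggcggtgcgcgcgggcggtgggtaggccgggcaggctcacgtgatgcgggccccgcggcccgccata
The 150-base windows end 11 bases before the start for HMGCS1, 1 base for IDI1 and 26 bases for INSIG1. CCAAT on either strand was found in the promoter windows of 11 of the 12 called genes with promoters in the RefSeq table (GRCh38.p14), against 39.7% of all 27305 genes. TCACNCCAC, the letters of a sterol regulatory element, was found in 0 of the 12 and in 1.39% of all genes, which says only that these exact letters are absent from those windows. Only called members were counted here too, so these shares do not relate the letters to the change.

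At the entry to the pathway, ACAT2 (acetoacetyl-CoA synthesis) fell 2.91-fold. HMGCS1, the next enzyme, went from 2.15, 2.30 and 2.25 to 0.56, 0.69 and 0.75, a 2.96-fold fall (−1.56 ± 0.07, SE, limma adjusted p = 4.98e-05). The times were clearly apart for both genes.

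Along the isoprenoid steps, IDI1, the isomerase, fell from 2.48, 2.33 and 2.35 to 0.68, 0.74 and 0.81. MVK and MVD, the first and last mevalonate-activating enzymes, fell by 0.76 and 0.93 on the log2 scale, while PMVK between them was not called at 0.06. FDPS, which makes farnesyl diphosphate, fell by 1.35. In the sterol branch, SQLE (squalene epoxidase) fell 2.70-fold, CYP51A1 fell by 1.37 and MSMO1 by 1.43. DHCR7, a late reductase, fell by 0.61. Of the genes that sense sterol, INSIG1, which retains the SREBP complex, fell by 1.43, whereas SREBF2, encoding SREBP2, was not called at 0.20. Genes of this section other than HMGCS1, IDI1, ACAT2 and SQLE were named after their values were seen.

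Fatty acid synthesis was lower in 4 of 14 genes and higher in 0, with a median of −0.39. LPIN1, a phosphatidate phosphatase, fell by 1.06, ACSS2, which makes acetyl-CoA from acetate, by 0.84 and the desaturase gene FADS1 by 0.74 on the log2 scale. FASN, the fatty acid synthase, was not called at −0.45, nor was the desaturase gene SCD at 0.51.

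**Figure D4:**
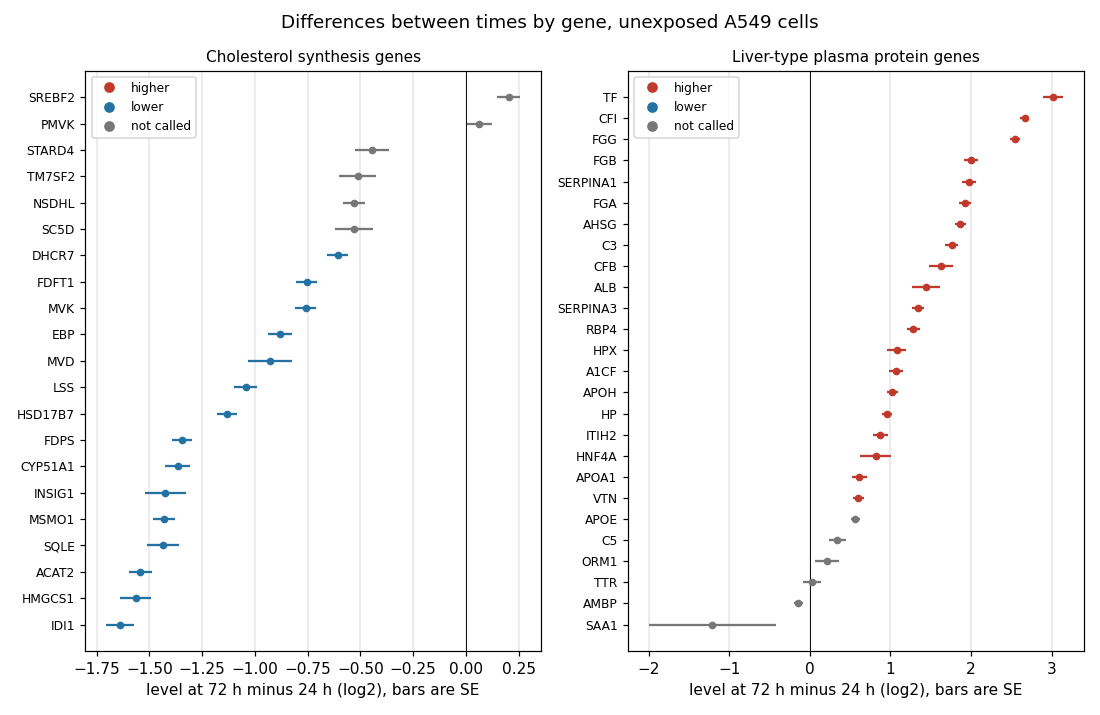
Difference between 72 h and 24 h (x axis, log2, bars are the SE) for tested genes of the cholesterol synthesis and liver-type plasma protein lists that are reported here, coloured by whether the gene was called higher, called lower or not called. Every called gene of the first list lies on the lower side, down to −1.64 for IDI1, and every called gene of the second on the higher side, up to 3.02 for TF.

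Genes of glycolysis and of the response to low oxygen were higher in 11 of 28 and lower in 1, with a median of 0.47. Beside CA9, HK2, the hexokinase that traps glucose in the cell, went from −6.40, −6.13 and −5.95 to −3.43, −3.58 and −3.20, a 6.76-fold rise with 2 of 3 arrays above background at 24 h. ANGPTL4, an inhibitor of lipoprotein lipase, rose 4.58-fold and EGLN3, a HIF prolyl hydroxylase, 2.95-fold. The glycolytic enzyme genes ALDOC and PGK1 rose by 1.10 and 0.83 on the log2 scale. Other well-known members did not follow. VEGFA, the vascular growth factor, stood at −0.92, −0.93 and −0.85 at 24 h and at −1.03, −1.04 and −0.85 at 72 h, where the times overlapped. SLC2A1, the glucose transporter GLUT1, was not called at −0.35, and ADM, the peptide adrenomedullin, fell 1.89-fold.

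Genes of alveolar and airway secretory cells were higher in 10 of 23 and lower in 1, with a median of 0.56. The gel-forming mucin gene MUC5B went from −3.08, −2.78 and −2.64 to −0.72, −0.97 and −0.97, a 3.85-fold rise, and the membrane mucin gene MUC1 rose 3.00-fold with its brightest probe, while its other probe was not called. LCN2, an iron-chelating defence protein, rose 2.90-fold, and NAPSA, a protease that processes surfactant protein, 1.77-fold. BPIFB1, a secreted airway protein, was not well above background at 24 h and was at least 2.41-fold higher at 72 h, a call lost with normexp. Among the surfactant genes, SFTPA2 was called higher at 1.00, with a near-identical paralog that the probe may also detect, and SFTPC and SFTPD were not called at 0.03 and −0.26. The transporter ABCA3 of lamellar bodies was not called at 0.22. CAV1, caveolin 1 of alveolar type I cells and of caveolae in many cell types, fell 1.96-fold.

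Cell junction genes were called higher in 3 of 30 and lower in 2, against 2 higher and 4 lower with median centring and 3 higher and 4 lower without the 72 h replicate 3. CLDN7 rose 4.12-fold, CLDN2 1.97-fold and CLDN4 1.51-fold, and CLDN1 fell 2.24-fold, all claudins of tight junctions. CDH1, E-cadherin, was not called at 0.10, and the intermediate filament gene VIM, vimentin, fell from 6.54, 6.70 and 6.66 to 5.71, 5.98 and 5.96.

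Targets of NF-kB and inflammatory mediators were lower in 9 of 24 and higher in 2, with a median of −0.47, and with median centring in 12 and 1. RELB, an NF-kB subunit, went from 2.61, 2.64 and 2.52 to 1.06, 1.11 and 1.07, a 2.85-fold fall. The chemokine gene CXCL8 was well above background at 24 h alone and was at least 1.58-fold lower at 72 h, and the cytokine gene IL6 fell by 1.21 on the log2 scale. CXCL1 and CCL2, further chemokines, fell by 0.99 and 0.98. IL1B, the interleukin-1 beta gene, was not well above background at 24 h and was at least 1.78-fold higher at 72 h. NFKBIA, the inhibitor of NF-kB, was not called at 0.27. With normexp background correction, 4 of the 24 genes were called, all lower, and the calls of CXCL8, IL6, CCL20 and IL1B were lost.

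Interferon-response genes were higher in 7 of 24 and lower in 0, with a median of 0.16. Beside IFITM1, IRF9, a subunit of the interferon-stimulated factor, rose 2.28-fold and IFIT1 1.82-fold, whereas ISG15, a ubiquitin-like modifier, was not called at 0.08. With normexp 3 of the 24 were called, and with median centring 4 were higher and 1 lower.

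Leukocyte markers were called higher in 3 of 7, namely CD14, CD79A at 1.00 and FCER1G at 0.75. PTPRC, the pan-leukocyte CD45, was not called at −0.43, and no array had CD3E well above background. The summed linear signal of the 7 markers, in units of the 75th percentile of the array, was 1.51 to 1.54 at 24 h and 4.64 to 4.82 at 72 h, and without CD14 it was 1.27 to 1.31 and 2.06 to 2.38. The fibroblast markers summed to 0.552 to 0.572 and 0.729 to 0.750, with THY1 called higher at 0.82 and COL1A1 not called at −0.44. The endothelial markers summed to 0.123 to 0.127 and 0.134 to 0.153, with 0 of 3 called. The part of other cell types in the differences was not tested.

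Targets of YAP and TGF-beta, which include many contractile genes, were lower in 11 of 27 and higher in 4, with a median of −0.44. TPM1, a tropomyosin, went from 4.51, 4.58 and 4.50 to 3.09, 2.92 and 3.00, a 2.88-fold fall with each of its 3 probes. AMOTL2, a YAP-binding angiomotin, fell 2.06-fold, and the matricellular genes CCN1 and CCN2 fell 1.64-fold and 1.54-fold. TAGLN, LATS2 and MYL9 fell by 0.92, 0.92 and 0.86 on the log2 scale. The exceptions were FN1 and the inhibitors of differentiation ID1, ID3 and ID4, known targets of BMP signalling. FN1, fibronectin, rose from −6.16, −5.79 and −5.91 to −3.67, −3.85 and −3.77. ID1 rose from 3.94, 3.52 and 3.65 to 5.77, 5.91 and 5.98, a 4.55-fold rise, ID3 rose 1.82-fold, and ID4 7.74-fold with 1 array above background at 24 h.

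In the matrix and integrin list 6 of 32 genes were lower and 3 higher, with a median of 0.06. The integrin gene ITGB8 fell 1.76-fold, while ITGA5, the fibronectin receptor subunit, rose 2.53-fold and AGRN, agrin, 2.01-fold. Growth-factor response genes of the AP-1 and EGR kind were lower in 7 of 25 and higher in 4, and with median centring in 9 and 3. The MAP kinase phosphatase gene DUSP5 fell 2.84-fold, ATF3 2.13-fold and MYC, a growth-promoting transcription factor, 1.64-fold, JUNB and EGR2 rose 2.09-fold and 2.08-fold, and FOS, EGR1 and JUN were not called at 0.45, 0.29 and 0.10.

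Proliferation genes were mostly not called at the 1.5-fold threshold. Of 34 mitosis genes, 2 were lower and 1 higher, and of 35 DNA replication genes, 5 were lower and 0 higher, with medians of −0.24 and −0.25. Without the fold threshold, 19 mitosis genes were lower and 2 higher, and 24 DNA replication genes were lower and 0 higher. Over all 22133 probes, 13098 were called without that threshold, 7590 higher and 5508 lower. MKI67, the Ki-67 antigen, overlapped between times, at 0.27, 0.74 and 0.91 against 0.27, 0.43 and 0.61, and so did PCNA. RRM2, the ribonucleotide reductase subunit of S phase, fell from 0.66, 0.50 and 0.62 to −0.68, −0.63 and −0.67, a 2.38-fold fall, and CCNE2, a cyclin of entry into S phase, fell 2.37-fold with both probes. UHRF1 and MCM6 fell 1.69-fold and 1.52-fold. In a list of quiescence and FOXO genes, 4 of 23 were higher and 3 lower, with a median of 0.04. The lower ones were DEPP1, KLF2 and MYC, at −1.01, −0.61 and −0.71 on the log2 scale. CDKN1C, a cyclin-dependent kinase inhibitor, rose 2.22-fold and BCL6, a transcriptional repressor, 2.59-fold, and TXNIP, the thioredoxin-interacting protein, rose 4.36-fold from 1 array above background at 24 h. CDKN1B was not called at −0.12 with its brightest probe, while its other probe was called higher. Of 30 p53 targets, CDKN1A and BTG2 rose 1.58-fold and 2.19-fold, and MDM2 was not called at 0.02. With median centring 1 of the p53 targets was higher and 3 were lower.

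Clock genes were higher in 3 of 16 and lower in 0, or in 1 with median centring. DBP, a PAR leucine-zipper factor, went from −3.00, −3.00 and −2.92 to −0.58, −0.76 and −0.73, a 4.86-fold rise, and the nuclear receptor gene NR1D1 rose 1.80-fold, whereas PER1 and PER2 were not called at 0.52 and −0.13.

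Genes of the ATF4 amino-acid response moved in both directions, 9 of 30 higher and 3 lower, with a median of 0.20. DDIT4, an inhibitor of mTORC1, rose 2.98-fold, CBS, of cysteine synthesis, 2.26-fold and ASNS, asparagine synthetase, 1.51-fold, while TRIB3, a pseudokinase, fell from 5.91, 5.91 and 5.86 to 4.75, 4.82 and 4.75 and the cystine transporter gene SLC7A11 fell 2.13-fold. NRF2 targets were higher in 4 of 31 and lower in 4, EPHX1, an epoxide hydrolase, rising 2.19-fold and SRXN1, sulfiredoxin, falling 1.70-fold, with HMOX1 and NQO1 not called at −0.56 and −0.34. With median centring 2 of the NRF2 targets were higher and 7 lower. Of 17 xenobiotic enzymes and AHR targets, 4 were higher and 2 lower, ALDH3A1 rising 1.86-fold and CYP2S1 1.90-fold beside ADH1C, and CYP1B1 was not called at −0.40. XBP1, a factor of the unfolded protein response, was the single gene called of 22 in the endoplasmic reticulum list, with a 1.91-fold rise, and HSPA5 was not called at 0.35. Of 19 heat shock genes, DNAJB4 alone was called, falling 1.64-fold. In the lysosome list 3 of 34 were higher, the cathepsin genes CTSB and CTSD and the peptidase gene TPP1, at 1.75-fold, 1.51-fold and 1.63-fold, and NPC2, a cholesterol carrier, fell 1.64-fold. The balance of this list depended on the scaling, with 1 higher and 3 lower when arrays were centred on their medians.

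The levels at 72 h were also set beside the 8 unexposed 24 h arrays of the other sets, which were hybridized on other slides and not compared by a test. All 3 arrays at 72 h lay above all 11 arrays at 24 h for 42.8% of the probes called higher, and below all of them for 37.9% of those called lower. Among the lead genes this held for 13 of 15 that rose, with CST1 and CEACAM1 the exceptions, and for 10 of 15 that fell, with FAM177B, CNN1, NCF1, VSTM1 and ABCA11P the exceptions. The 11 include the 3 arrays at 24 h that made the calls, and the share over all probes tested was not computed. Neither the percentages nor the counts of lead genes are therefore separate support for the time effect. CD14 ranged from −1.83 to −1.60 on the 8 arrays, below its lowest 72 h level. CA9 ranged from −5.32 to −3.45, TNNC1 from −2.47 to −0.43 and FAM177B widely, from −6.96 to −1.29. CA9 and FAM177B were each well above background on 7 of the 8 arrays, so the low ends of their ranges may lie at background. FGG ranged from 2.44 to 3.26, between its levels at both times in the set compared here, and RNA5-8SN5 from 2.39 to 4.60. HMGCS1 ranged from 1.59 to 2.16, above all 3 of its 72 h levels.

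Cells exposed to silica NPs at 3.0 or 6.0 μg/cm2 were measured at both times in the same set, with the exposed 72 h arrays on other slides and scanned on another day. Averaged over both doses, 4951 of 22505 probes were called between times in exposed cells (22.0%). Of the 4305 probes called in unexposed cells and tested there, 2186 were called in the same direction and 36 in the opposite one. The difference between the time effects was called for 2398 of 22801 probes (10.5%) and for 10.2% of the 14337 genes. Of the 30 lead genes, which were chosen by their size in unexposed cells, all kept the sign in exposed cells, and 28 were called there, CST1 and CNN1 not. The time effects differed for 16 of the 30, 11 that rose and 5 that fell, and were smaller in exposed cells for each of the 16. The difference was called for 22.4% of the probes called in unexposed cells. The same unexposed arrays chose these genes and enter the difference, so smaller effects in exposed cells are favoured by that choice.

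**Figure D5:**
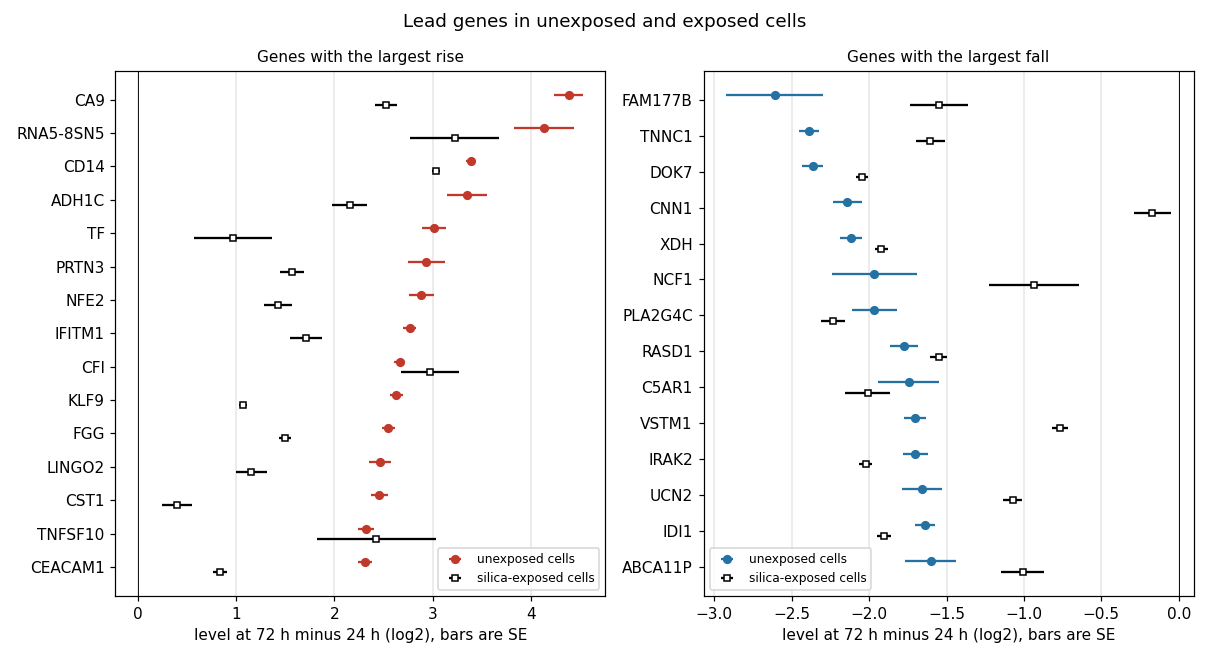
Difference between 72 h and 24 h (x axis, log2, bars are the SE) in unexposed cells (filled circles) and in cells exposed to silica, averaged over both doses (open squares), for the genes with the largest rise and fall in unexposed cells that are reported here. CA9 shows 4.38 and 2.52, CFI 2.66 and 2.97, and CNN1 −2.14 and −0.17.

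By list, the difference between the time effects was called for 15 of 28 hypoxia and glycolysis genes, where the median was 0.47 in unexposed and −0.10 in exposed cells. It was called for 14 of 23 quiescence and FOXO genes (medians 0.04 and −0.49) and for 12 of 28 liver-type plasma protein genes (1.08 and 0.54). For cholesterol synthesis it was called for 8 of 25 genes (−0.88 and −1.32) and for mitosis for 11 of 34 (−0.24 and 0.34). For ribosomal proteins and the respiratory chain it was called for 0 genes.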

How the data were processed

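Unexposed A549 control cultures at 24 h and 72 h were profiled on one-colour Agilent 4x44K arrays, 3 biological replicates per time. Per the labels and the study's methods, total RNA was amplified, labelled with cyanine-3, hybridized and scanned by the authors, and signals were extracted with Agilent Feature Extraction 11.0.1.1, per the file headers. The deposited intensity values used here are the software's processed signals, already background-subtracted. The deposited series table was found to hold the raw median spot intensity (equal within 0.01 for all 43118 spots of each array) and served as an alternative.

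Intensities were converted to log2 here and scaled by subtracting the 75th percentile of the array, with control spots and outlier flags left out and spots of a probe averaged. Probes entered the test if all arrays of either time had them well above background. Times were compared with limma 3.58.1 (R 4.3.3, lmFit and eBayes), over 22133 probes, with Benjamini-Hochberg adjustment, an adjusted p threshold of 0.05 and a fold change threshold of 1.5. For probes well above background at one time alone, a bound was computed against the lowest signal among well-detected probes of each array. The precision is limited by 3 arrays per time. P-values set the difference between times against the spread between cultures of the same time, and they do not cover array position.

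Symbols were taken from RefSeq (GRCh38.p14) by accession, and 25715 of 34127 probes had one. Promoters came from the RefSeq table, which held 12 of 17 and 16 of 21 called genes of the 2 lists scanned. The genes named are the 15 with the largest rise and the 15 with the largest fall among called probes with 1 symbol, above background on all 6 arrays and without overlap, 5 by bound in each direction, and of each list its first 3 genes and its 4 largest calls per direction. Others were named after their values were seen. The comparison, gene lists and rules were chosen with earlier results of these data known.

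Replicate number is shared with the slide. Deviations of same-numbered arrays correlated by 0.02, 0.07 and 0.08, and the fit without the block is reported. The time effect in exposed cells was fitted over the 12 exposed arrays, and its difference from that in unexposed cells over 18 arrays. Alternatives were normexp (on median spot and background signals, the mean signal not being used here), quantile and median scaling, other filters, the series table, the replicate block, the methods' t-test and leaving out each array. Some genes counted in the lists are not reported here by name. Scripts were tested on simulated data. Columns of per-sample values not used numbered 0.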

Additional observations from a re-analysis of the deposited data

Results flagged for a closer look

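For 16 of the 30 lead genes the change between 24 h and 72 h differed between unexposed cells and cells exposed to silica at 3.0 or 6.0 μg/cm2, by the limma test of the difference itself (adjusted p under 0.05 and at least 1.5-fold). The exposed 72 h arrays were on other slides and scanned on another day than the unexposed ones, so slide and exposure cannot be told apart at that time. The genes were chosen for large changes on the same unexposed arrays that enter this test, a choice that favours smaller changes in exposed cells. Given as exposed minus unexposed on the log2 scale, the difference was −1.86 for CA9, −2.06 for CST1, −2.04 for TF and −1.56 for KLF9. It was −1.47 for CEACAM1, −1.46 for NFE2, −1.37 for PRTN3 and −1.31 for LINGO2. It was −1.19 for ADH1C, −1.05 for FGG and −1.05 for IFITM1. Among genes that fell, it was 1.97 for CNN1, 1.06 for FAM177B, 0.94 for VSTM1, 0.78 for TNNC1 and 0.59 for UCN2. The adjusted p ranged from 2.08e-08 for KLF9 to 0.0398 for FAM177B. CNN1 fell by 2.14 in unexposed cells and differed by −0.17 in exposed cells, and CST1 rose by 2.46 and differed by 0.40. For 8 genes, the unexposed 24 h arrays of each of the 2 other sets were examined for an array far from the others, and 0 of these 16 cases had one. The few arrays per set limit that check, and FAM177B still ranged from −6.96 to −1.29 over both sets. FAM177B was well above background on 7 of those 8 arrays.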

How the results depend on the processing

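The count of called probes, 4455, lay between 4268 and 4503 when 1 array was left out, was 4460 with the replicate block and 3983 by the methods' t-test. It fell to 2075 with normexp and to 2045 with the series table, and was 13098 without the fold threshold. The time effect in exposed cells had 4951 calls, 1839 with normexp, 2364 with the series table, 15919 without the fold threshold and 4775 to 5192 without 1 array. The difference between both effects had 2398 calls, 1377 with normexp, 8519 without the fold threshold and 2186 to 2541 without 1 array. Paired by replicate number, those counts were 4980 and 2441. Of the 198 genes named by rule, none lost or gained a call with the replicate block. With normexp 27 lost the call and 2 changed sign, ITGB6 to 0.14 and DEPP1 to 0.0619, and the cause was not tested. Those lost with normexp included ABCA11P, ANKRD1, ANLN, BPIFB1, CBR3, CCL20, CCN2, CDKN1A, CLDN4, CXCL8, CYP4F11, DNAJB4, F13B, F7, IL1B, IL6, IRF1, ITGB8, KLF2, KNG1, MCM6, MX2, PER3, SCN3B, TIPARP and UBD. Leaving out 1 array ended 1 to 9 of the calls, most without the 72 h replicate 1 (ANLN, CCN2, CLDN4, CTSD, ETV4, IRF1, KLF2, MCM6 and PGD), and otherwise those of ASNS, CYP4F11, TIPARP and TPP1 beside some of these. The list counts for plasma proteins (15 of 28 called with normexp) and cholesterol synthesis (17 of 25) kept their direction, while NF-kB targets were called in 4 of 24 with normexp, 5 with the series table and 7 with the stricter filter. Interferon-response and coagulation genes were called in 3 each with normexp and with the series table. With median centring the balance of higher and lower genes turned for the lysosome, p53 and junction lists. DNA replication genes were called in 9 of 35 with median centring and in 3 with the series table. Signal near background limits genes with low levels, and 3 arrays per time limit the rest.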
